A study of Homo sapiens with 2 samples.

Results

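RUNX1 binding around 10 genes of the YAP and TEAD pathway was examined in RUNX1-deleted MCF10A cells with induced RUNX1. The parental MCF10A is an established line of human mammary epithelium that does not form tumors. The authors report that MCF10A cells became tumor-forming once RUNX1 was deleted. The genes were YAP1 and WWTR1 (which encodes TAZ), the TEAD1, TEAD2, TEAD3 and TEAD4 transcription factors, and the targets CCN1 (CYR61), CCN2 (CTGF), AMOTL2 and ANKRD1. A peak was counted for a gene when its summit lay inside the RefSeq interval of the gene or within 50 kb of either end, on GRCh38 (hg38). By this rule 19 of the 13591 peaks in the list belonged to the 10 genes, and 6 of the 10 genes had at least 1 peak.

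The data came from chromatin immunoprecipitation followed by sequencing (ChIPseq) with an anti-RUNX1 antibody, with 1 immunoprecipitated library (80338845 tags kept) and 1 library of input DNA (87410774 tags kept). In both libraries the cells were RUNX1-deleted MCF10A cells transduced with a lentivirus that expressed RUNX1 under doxycycline, and both received doxycycline at 1 µg/ml for 24 h. All peaks are therefore those of induced RUNX1 and not of RUNX1 at its natural level. There were no replicates, so intervals given here cover counting error only, no test between conditions was possible, and comparisons with the rest of the list are descriptions. The RUNX1 gene itself had 19 peaks by the 50 kb rule, with pileups that reached 148 tags, the ceiling that 1 tag per position and strand allows, in cells that carry an added RUNX1 gene.

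YAP and TAZ are coactivators without a DNA-binding domain of their own. They are held in the cytoplasm when phosphorylated by the LATS kinases of the Hippo pathway, and in the nucleus they act through TEAD proteins, which bind DNA at CATTCC and its reverse complement. In mammary epithelium the pathway responds to cell density and matrix stiffness, and CCN1, CCN2, ANKRD1 and AMOTL2 are widely used readouts of its activity.

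For each peak the pileup counts the ChIP tags, after extension, that cover the summit, and the fold enrichment is that pileup over the local background, each after adding 1. The input level is this local background, recovered from both values and given as a multiple of the genome background of 2.20 tags. The genome background is its floor, so the input itself may have been lower at peaks that sit there. Over the whole list the median pileup was 18 tags, the median fold enrichment 5.06 and the median width 153 bp. At the 10 genes the medians were 19 tags, 6.04 and 153 bp.

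Peaks were unevenly distributed over the pathway. AMOTL2 had 7 peaks, WWTR1, TEAD1 and CCN1 had 3 each, TEAD3 had 2 and CCN2 had 1, whereas YAP1, TEAD2, TEAD4 and ANKRD1 had 0. Over all 20033 protein-coding genes 52.1% had at least 1 peak by the same rule, so that 6 of 10 was near the background. Longer genes had a peak more often. The background was 44.2% for protein-coding genes under 10 kb, 50.3% for 10 to 50 kb, 57.6% for 50 to 150 kb and 69.2% for longer ones. Of the members, 2 of 3 in the shortest class had a peak (CCN1 and CCN2, not ANKRD1), 2 of 3 in the next (TEAD3 and AMOTL2, not TEAD2), 0 of 2 in the third (YAP1 and TEAD4) and 2 of 2 in the longest (WWTR1 and TEAD1).

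**Figure D1:**
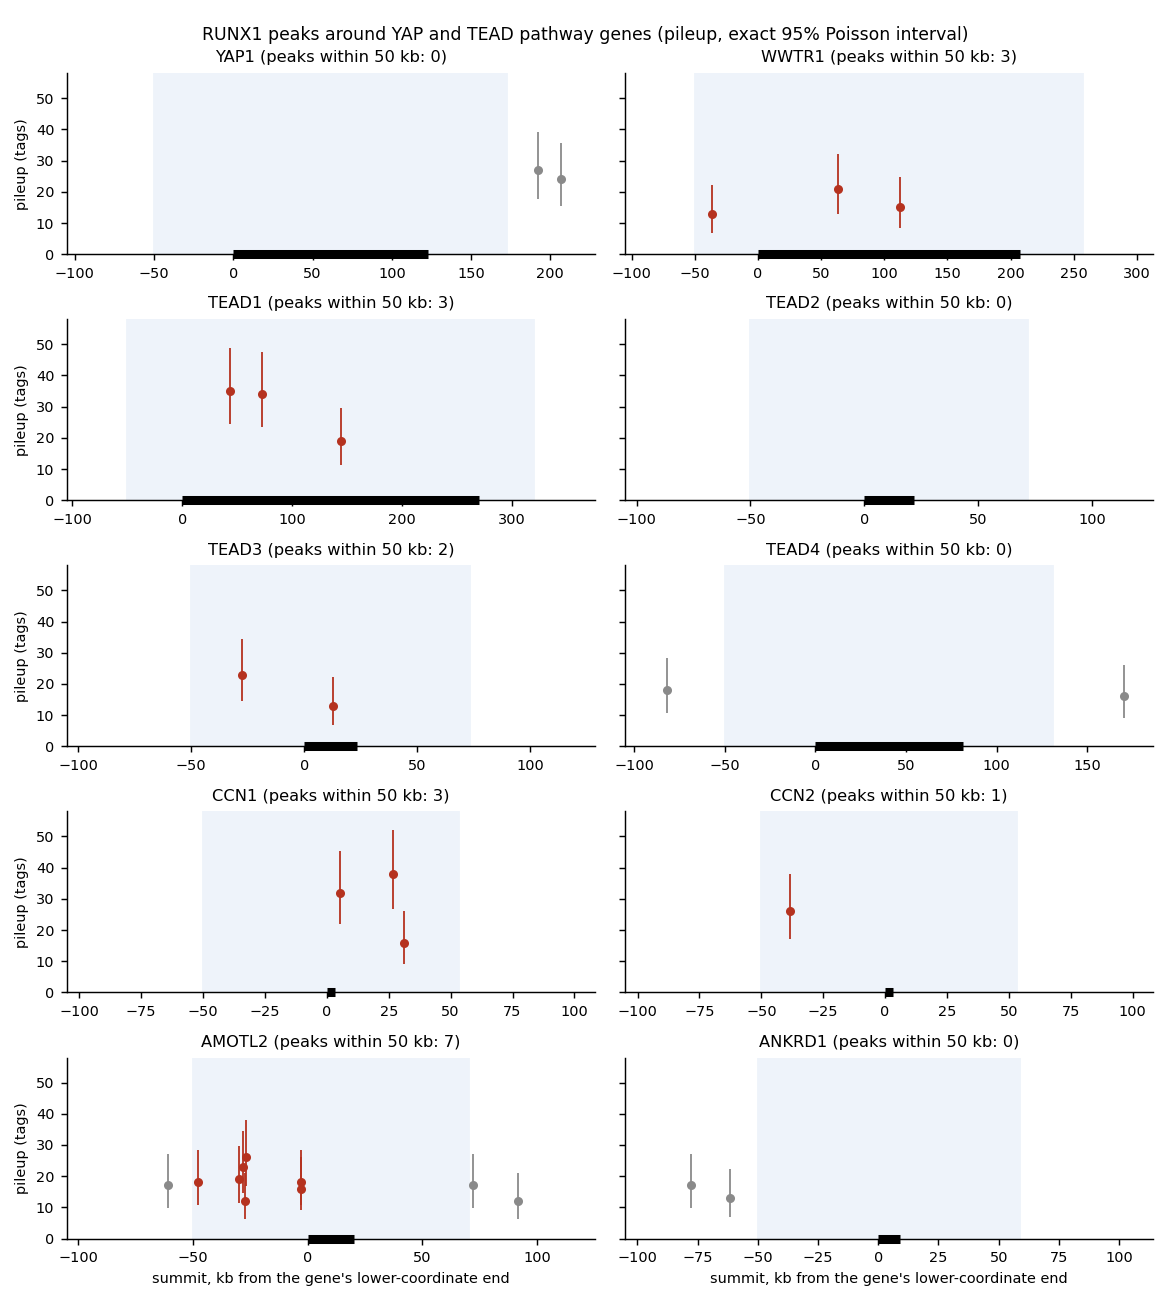
Pileup in tags of each RUNX1 peak against the position of its summit, in kb from the lower-coordinate end of each gene, with exact 95% Poisson intervals as vertical lines. The black bar is the gene, the shaded area reaches 50 kb beyond both ends, red points are counted peaks and grey points are peaks between 50 and 100 kb away. The 7 AMOTL2 peaks within 50 kb all lie on 1 side of the gene, with grey points on the other, and YAP1, TEAD2, TEAD4 and ANKRD1 have no red point.

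Within 50 kb the coactivator genes differed in their number of peaks, whereas within 100 kb YAP1 had 2 and WWTR1 had 3. YAP1 (chr11:102110447-102233424) had 0 peaks in its 123 kb body or within 50 kb, and the closest summit lay 69.0 kb from its higher-coordinate end, in a peak of 27 tags. WWTR1 (chr3:149517235-149724788) had 2 peaks inside the gene and 1 outside it. The stronger inner peak, at chr3:149580292-149580472, had 21 tags (exact 95% Poisson interval 13.0 to 32.1), a fold enrichment of 6.74 and an input level of 1.03 times the genome background. The other, at chr3:149629423-149629553, had 15 tags (8.40 to 24.7) and a fold enrichment of 3.42, with an input level of 1.67 times background. Both inner summits lay far from the start sites of WWTR1, the nearest distance being 28.5 kb. The outer peak, of 13 tags (6.92 to 22.2), had its summit inside TM4SF4, a neighbouring gene for a membrane protein, 36.7 kb from WWTR1. Of the 3 peaks at the TAZ gene, 1 was above the list median of 18 tags and 2 were at or below the lower quartile of 15, although each counting interval included the median.

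Of the 4 TEAD genes, TEAD1 had the 2 tallest peaks. The counting intervals of both overlapped that of the taller TEAD3 peak, of 23 tags (14.6 to 34.5). The 3 TEAD1 peaks all lay inside the gene (chr11:12674421-12944737), at 16.1, 26.8 and 53.4% of its length from the lower-coordinate end. The peak at chr11:12746606-12747136 had 34 tags (23.5 to 47.5), a fold enrichment of 10.9, the highest at the 10 genes, and an input level at the genome background. With 531 bp it was also the widest of the 19, and only 0.655% of all peaks were wider. The peak at chr11:12717848-12718271 reached 35 tags (24.4 to 48.7) and 424 bp, with a fold enrichment of 7.70 over an input level of 1.67 times background. The third peak had 19 tags (11.4 to 29.7) and a fold enrichment of 6.04. The 2 taller TEAD1 peaks therefore did not differ in height beyond counting error, and both intervals lay above the list median.

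TEAD3 had 2 peaks. That inside the gene (chr6:35486339-35486422) had 13 tags (6.92 to 22.2), was 84 bp wide and had a fold enrichment of 4.23; 83.0% of all peaks had a higher −log10 q. The other, of 23 tags (14.6 to 34.5) and 376 bp, lay 27.7 kb from TEAD3 but 6.42 kb from FANCE, a gene of the Fanconi anemia DNA repair pathway. The closest summit to TEAD2 was 105.8 kb away, the farthest for any of the 10 genes. TEAD4 had its closest summit 82.1 kb away, with 18 tags.

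Among the targets, CCN1, which encodes a secreted matrix protein, had the tallest peak of the 10 genes. CCN1 (chr1:85580761-85583950) is only 3.19 kb long, and all 3 of its peaks lay outside it, on the higher-coordinate side. The closest, at chr1:85585938-85586142 and 2.11 kb from the gene, had 32 tags (21.9 to 45.2), a fold enrichment of 10.2 and an input level of 1.02 times background. The tallest, at chr1:85607074-85607520 and 23.4 kb away, had 38 tags (26.9 to 52.2), a fold enrichment of 10.4 and a −log10 q of 25.2, the highest of the 19; only 2.81% of all peaks had a higher −log10 q. The third, 28.2 kb away, had 16 tags (9.15 to 26.0), a fold enrichment of 3.04 and an input level of 2.09 times background, and was the weakest of the 19 by −log10 q. CCN1 was the nearest protein-coding gene to all 3 summits, the next being DDAH1. For comparison, 9.35% of protein-coding genes under 10 kb and 13.9% of all protein-coding genes had at least 3 peaks.

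AMOTL2 encodes an angiomotin family protein that binds YAP and TAZ, and is itself a target of the pathway. It had the most peaks of the 10 genes, 7 in a window of 120 kb, or 36.8% of the 19. At least 7 peaks were found at 0.913% of all protein-coding genes and at 0.483% of those of 10 to 50 kb, the length class of AMOTL2 (chr3:134355345-134375417). With peaks within 1 kb of each other merged, AMOTL2 had 4 in place of 7 and the other 9 genes were unchanged, and at least 4 merged peaks were found at 5.25% of all protein-coding genes and 3.74% of those of 10 to 50 kb. All 7 lay on the lower-coordinate side, which is the downstream side of this minus-strand gene, and AMOTL2 was the nearest protein-coding gene to each. A pair lay 2.87 and 3.09 kb from the gene end, with 16 tags (9.15 to 26.0) and 18 tags (10.7 to 28.4), their summits 225 bp apart.

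A second group of 4 AMOTL2 peaks lay 27.0 to 30.0 kb from the gene, inside the long non-coding RNA gene LOC105374118, with pileups of 26, 12, 23 and 19 tags from the nearest to the farthest. The tallest of these, at chr3:134328290-134328442, had an interval of 17.0 to 38.1 tags and a fold enrichment of 7.19, and the peak at chr3:134326950-134327288 had the highest fold enrichment at AMOTL2, 7.50. The last peak, of 18 tags, lay 47.8 kb away, just inside the 50 kb limit, and the next on that side lay 60.9 kb away. On the opposite side the first peak, of 17 tags, lay 52.0 kb from the gene, just outside the limit, so that the peaks are on 1 side only within the 50 kb window. The AMOTL2 peaks were thus many but of ordinary height. Each of the 7 was lower than the 2 taller peaks of TEAD1 and of CCN1, although the counting interval of the tallest overlapped theirs. Neighbouring peaks are not independent sites, and merging took the 10 genes from 19 peaks to 16, all of it at AMOTL2.

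CCN2 encodes a secreted matrix protein related to CCN1, and ANKRD1 encodes an ankyrin repeat protein. Both are established direct targets of TEAD. CCN2 (chr6:131948176-131951372) had 1 peak, at chr6:131909803-131909998, with 26 tags (17.0 to 38.1), a fold enrichment of 7.39 and an input level of 1.20 times background. It lay 38.3 kb from CCN2, inside the antisense RNA gene CCN2-AS1, and 14.7 kb from ENPP1, which was the nearer protein-coding gene. ANKRD1 (chr10:90912096-90921087) had 0 peaks, and its closest summit, in a peak of 13 tags, lay 61.5 kb away.

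None of the 10 promoters found for 7 of the genes held a summit. Promoters are stretches of 300 bases, from 250 before the start site to 50 from it, in RefSeq on GRCh38.p14. They were those of YAP1, WWTR1, TEAD2, TEAD3, CCN2, AMOTL2 and ANKRD1. Of 35116 promoters 1.25% held a summit. From the start sites the nearest summit was 10.7 kb away for TEAD3, 22.0 kb for AMOTL2, 28.5 kb for WWTR1, 41.5 kb for CCN2, 70.5 kb for ANKRD1, 105.8 kb for TEAD2 and 192.0 kb for YAP1. Peaks at these genes were thus distal to the start sites in the table.

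The promoters of 3 targets are shown in part because they hold the letters that TEAD proteins recognise, where no RUNX1 peak was found. Each is upstream of the start site, 5′ to 3′ along the gene, and comes from the minus strand of the positions given. Capitals mark every match to CATTCC or its reverse complement (TEAD), TGANTCA (AP-1), and TGTGGT or TGTGGTT (RUNX, the longer holding the shorter), each searched on both strands. They span chr6:131951455-131951548, chr10:90921203-90921314 and chr3:134374504-134374564.
CCN2: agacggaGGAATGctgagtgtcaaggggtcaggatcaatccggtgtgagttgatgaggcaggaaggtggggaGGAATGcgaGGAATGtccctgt
ANKRD1: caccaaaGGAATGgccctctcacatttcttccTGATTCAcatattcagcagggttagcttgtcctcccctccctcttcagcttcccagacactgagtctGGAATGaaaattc
AMOTL2: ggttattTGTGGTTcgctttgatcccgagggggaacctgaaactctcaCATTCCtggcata

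The CCN2 promoter held 3 TEAD matches, the closest ending 90 bases before the start site, and 0.128% of all promoters held at least 3. The ANKRD1 promoter held 2, and 1.37% of all promoters held at least 2. YAP1 and 1 of the 2 AMOTL2 promoters held 1 each, so that CATTCC was present in 4 of the 10 promoters against 14% of all. The 10 promoters came from 7 genes. The list was chosen to hold pathway targets such as CCN2, ANKRD1 and AMOTL2, so no enrichment can be read from this share. TGTGGT was present in 2 of 10, at WWTR1 and AMOTL2, against 13.1% of all, and TGTGGTT in 1, at AMOTL2, against 4.27%. The AMOTL2 promoter held the RUNX letters 104 to 110 bases and the TEAD letters 64 to 69 bases before its start site, yet its nearest summit was 22.0 kb away. TGANTCA was present in 1 of 10, at ANKRD1, against 7.71%. A match is a description of the letters and not of a bound site. The genome sequence under the peaks was not used here, so motifs at the summits were not searched.

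**Figure D2:**
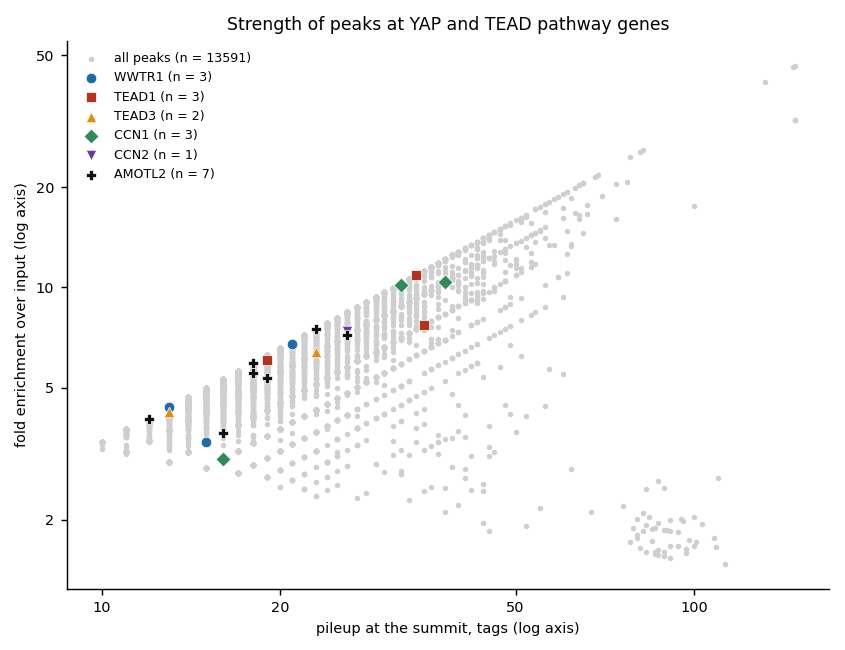
Fold enrichment over input against pileup at the summit, both on log axes, for all 13591 peaks (grey) and for the 19 peaks at the pathway genes, marked by gene. Of the 19, only TEAD1 (1 peak) and CCN1 (2 peaks) exceed a fold enrichment of 10, and the AMOTL2 peaks span 12 to 26 tags.

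As a group the 19 peaks spanned 12 to 38 tags and fold enrichments of 3.04 to 10.9. A fold enrichment of at least 5 was reached by 13 of them, or 68.4%, against 50.6% of the list, and at least 10 by 3, or 15.8%, against 3.82%. These 3 were the 2 nearer CCN1 peaks and 1 TEAD1 peak. Of the 19, 6 lay inside a gene of the pathway and 13 outside, with median pileups of 20 and 19 tags. Of the 13 outside, 10 had the pathway gene as their nearest protein-coding gene and 3 were in or nearer to another one, as given above for WWTR1, TEAD3 and CCN2. The windows of the 10 genes held 10.8 peaks per Mb, against 5.03 per Mb of effective genome, a density that varied from 0 at YAP1, TEAD2, TEAD4 and ANKRD1 to 58.3 at AMOTL2. The effective genome includes stretches far from any gene, so it is not a like comparison for gene windows. AMOTL2 alone held 36.8% of the 19 peaks, and 12 peaks remained without it. The median over the windows of all protein-coding genes was 1 peak.

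The input level at the 19 peaks had a median of 1.11 times the genome background and a highest value of 2.09, at the weakest CCN1 peak. The median was the same over the whole list. That highest value was 4.60 tags over the summit. The local background may come from the summit itself or from windows of 1 or 10 kb around it. The number of input tags behind a level therefore varies, and no interval was computed for these levels. The lowest value over the whole list was 1.00, the genome background itself, which is the floor of this measure. Peaks within 1% of the genome background made up 21.1% of the 19 and 39.5% of the list.

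The wider pathway was described from 2 further lists. Of 27 Hippo kinases and regulators, which act upstream of YAP and TAZ or compete with them for TEAD, 16 (59.3%) had a peak within 50 kb. Their 41 peaks had a median pileup of 17 tags and a median fold enrichment of 4.77. Of 16 other reported targets, 12 (75%) had a peak. Their 47 peaks had a median pileup of 21 tags and a median fold enrichment of 5.35. Both shares stand beside the 52.1% of all protein-coding genes, and the median length was 95.045 kb in the regulator list and 45.0 kb in the list of other targets, against 24.1 kb for all protein-coding genes.

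The best peak of the regulators by −log10 q was at PTPN14, a phosphatase that retains YAP in the cytoplasm, with 44 tags (32.0 to 59.1) and a fold enrichment of 9.23. STK3, a kinase that activates LATS, followed with 33 tags at its best of 6 peaks, then the LATS cofactor gene MOB1A with 30 tags, WWC1 (the scaffold KIBRA) with 32 tags and 9 peaks, and the kinase gene MAP4K4 with 27 tags. STK3 (599 kb) and WWC1 (181 kb) are long, and over all protein-coding genes longer than 150 kb the 95th percentile was 6 peaks. The best peak of MOB1A lay 27.0 kb outside the gene, whereas those of PTPN14, STK3, WWC1 and MAP4K4 lay inside. Whether another gene was nearer to the MOB1A peak was not looked up. The kinase genes divided, in that LATS2 had 2 peaks and LATS1 had 0. SAV1, MOB1B, FRMD6, AMOTL1, TAOK1, TAOK3, FAT4, VGLL1, VGLL2 and VGLL3 also had 0.

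Among the other targets, NUAK2, a kinase gene, had the best peak, at chr1:205286604-205286901, with 53 tags (39.7 to 69.3) and a fold enrichment of 12.7. This peak was 15.3 kb from the gene and exceeded each of the 19 peaks above in pileup and fold enrichment. RBMS3 followed with 32 tags and a fold enrichment of 10.1, ASAP1 with 51 tags at its best of 15 peaks (fold enrichment 6.23 over an input level of 3.34 times background), the receptor tyrosine kinase gene AXL with 31 tags and NT5E, which encodes the ectonucleotidase CD73, with 24 tags. The best peak of AXL lay 34.8 kb outside the gene and that of ASAP1 1.22 kb outside. Whether other genes were nearer to these peaks was not looked up. MYOF, F3, IGFBP3 and CRIM1 had 0.

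The input level was raised at several of these genes, and the number of input tags behind it was not counted. Its median over the peaks of the gene was 1.76 times the genome background at PTPN14, 1.49 at WWC1, 1.47 at NUAK2 and 1.67 at ASAP1, and no peak at these 4 genes had less than 1.25. Its part in their number of peaks was not tested. At the 2 tallest CCN1 peaks it was 1.02 and 1.25.

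**Figure D3:**
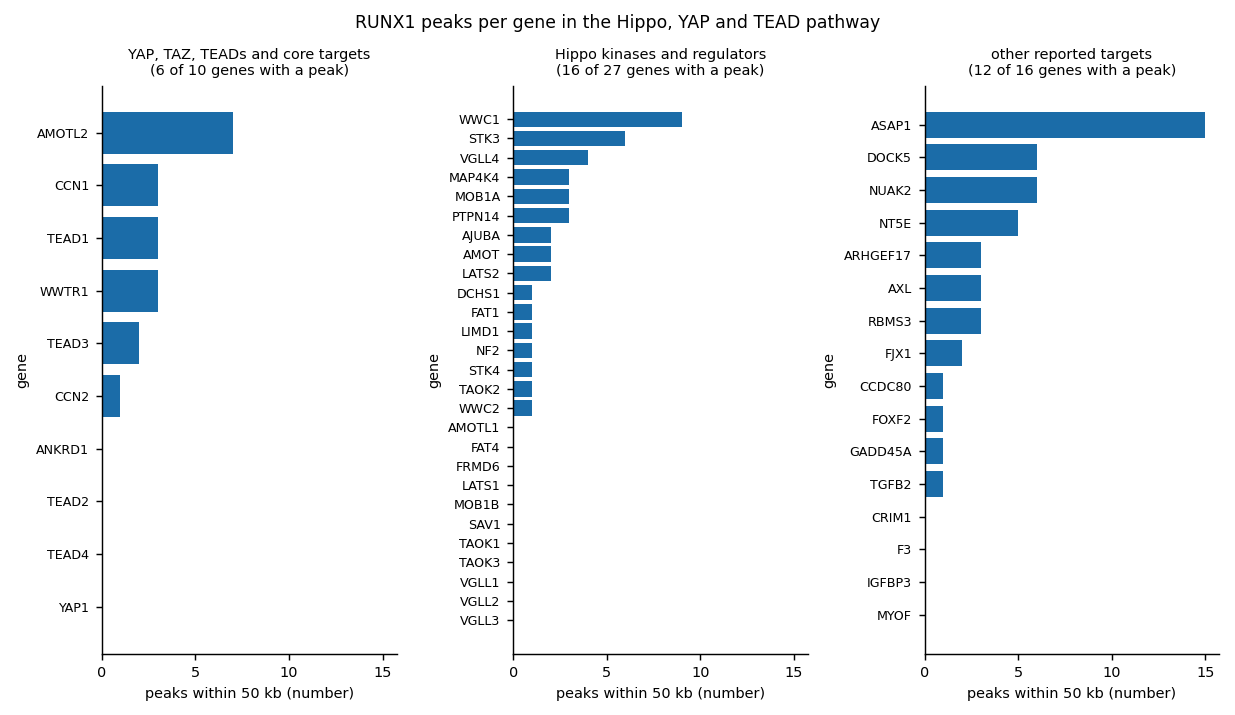
Number of RUNX1 peaks within 50 kb of each gene, as bars, for the 10 pathway genes, the 27 Hippo kinases and regulators and the 16 other reported targets. AMOTL2 leads the first group with 7 peaks, WWC1 the second with 9 and ASAP1 the third with 15. The counts are not adjusted for gene length, which was 20.1 kb for AMOTL2, 181 kb for WWC1 and 392 kb for ASAP1.

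The lowest pileup in the list was 10 tags. A site of fewer tags would not appear. The 0 peaks at YAP1, TEAD2, TEAD4 and ANKRD1 therefore mean that no binding was detectable at this depth inside the counting window. These counts of 0 also depend on that window. The closest called summits lay 69.0 kb from YAP1, 105.8 kb from TEAD2, 82.1 kb from TEAD4 and 61.5 kb from ANKRD1.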

How the data were processed

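The authors aligned 1 RUNX1 ChIP and 1 input library with Bowtie2 to hg38, per the labels, and called peaks with MACS 2.1.2 accepting a q-value of up to 0.05. As the file headers state, 54 bp tags were extended to 74 bp, 1 tag per position and strand was kept, and MACS scaled the input down to the ChIP library. Of 89501295 ChIP and 94686274 input tags, 80338845 and 87410774 were kept. The deposited pileup is a signal, the fold enrichment a ratio, and p and q are −log10 values, all as MACS gave them. The deposited widths and positions were used as given.

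Gene intervals were those of RefSeq GRCh38.p14, in which all 10 genes and both further lists were matched by symbol. Exons and introns were not told apart. The input level was (pileup + 1)/fold enrichment − 1. Background shares used the 20033 protein-coding genes on chromosomes 1 to 22, X and Y. Poisson intervals are exact (95%) and, without molecular identifiers, cover counting error only. Python 3.11.15 with pandas 2.3.3 and scipy 1.17.1 was used, and the assignment of peaks was tested on simulated summits. The members and lists were chosen with earlier results of these data known. Named genes are the members, the 5 best of each list by −log10 q and genes without a peak; other genes named (neighbours, LATS2) were chosen after their values were seen. The planned motif search in peaks was replaced by one in promoters.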

Additional observations from a re-analysis of the deposited data

How the results depend on the processing

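Of 44 alternatives over 8 results, 35 left a count or distance within 1.5 times, or a median pileup or fold enrichment within its counting interval. With gene bodies alone the 10 genes had 6 peaks in place of 19, 3 genes with a peak in place of 6 and a median distance to the nearer gene end of 67.8 kb in place of 28.3 kb, and 7 of the Hippo kinases and regulators had a peak in place of 16. With 5 kb on either side there were 9 peaks with a median distance of 43.6 kb, and with 100 kb the median distance was 45.7 kb. These follow from the width of the window. Merging of peaks within 1 kb, applied to AMOTL2 after seeing the data, gave it 4 peaks in place of 7. A fold enrichment of at least 5 left 9 regulators with a peak, since weaker peaks are dropped. With 100 kb, 9 of the 10 genes had a peak, TEAD2 being the exception. The planned search for RUNX letters in peaks was not run, since no genome sequence was used here. Depth limits detection to sites of at least 10 tags at the genome background, and of more tags where the local background is raised. No paired analysis was possible because neither the ChIP nor the input was replicated.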
